A study of Mus musculus with 12 samples.

Results

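The Ikaros zinc finger family of transcription factors has 5 members in mice, and all 5 were found by gene name among the 32285 genes of the deposited table: Ikzf1 (Ikaros), Ikzf2 (Helios), Ikzf3 (Aiolos), Ikzf4 (Eos) and Ikzf5 (Pegasus). Their RNA was followed in Ly6d- CLPs, lymphoid progenitors of the bone marrow (BM) that lack the early B-lineage surface marker Ly6d, and in Flk2+ MPPs, multipotent progenitors from which lymphoid progenitors arise. Both populations were sorted from the BM of wild-type C57BL6/J mice at 1 month (1MO) and 3 months (3MO) of age. The 4 groups, named 1MO CLP, 3MO CLP, 1MO MPP and 3MO MPP below, each had 3 libraries from independent experiments. The study's methods describe sorting from each mouse, the labels do not say whether mice were pooled for a library, and the populations are defined by surface markers, so that a sorted sample may hold cells in several states.

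Ikaros family proteins bind DNA through zinc fingers near the N terminus and pair with one another through zinc fingers at the C terminus. They recruit the NuRD chromatin remodelling complex and other corepressors, and they can also support transcription of their targets. Ikaros is needed for the lymphoid lineages and begins to act in multipotent progenitors, where it supports lymphoid priming and restrains stem cell and megakaryocyte-erythroid genes. Helios is known from stem and early progenitor cells and from regulatory T cells, Aiolos from later B-cell stages, and Eos from regulatory T cells. Pegasus is the most diverged member and its DNA-binding fingers recognise other sequences than those of Ikaros.

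On GRCm38, with GENCODE M21 gene models, Ikzf1 (ENSMUSG00000018654) lies at chr11:11685003-11772926 on the plus strand, and Ikzf3 (ENSMUSG00000018168) at chr11:98464902-98546031 on the minus strand. Ikzf2 (ENSMUSG00000025997) lies at chr1:69531214-69687245, Ikzf4 (ENSMUSG00000002578) at chr10:128630843-128645991 and Ikzf5 (ENSMUSG00000040167) at chr7:131388652-131410521, all on the minus strand. The models hold 6 transcripts for Ikzf1, 9 for Ikzf2, 4 for Ikzf3, 8 for Ikzf4 and 7 for Ikzf5, which the table sums to one value per gene, so that the isoforms of Ikaros with and without DNA-binding fingers were not separated. The longest run of identical bases between the transcripts of any 2 members was 32 bases (Ikzf2 and Ikzf4), and it ranged down to 15 bases in the other pairs.

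The regulatory sequences below are those beside the members whose values the results turn on. RefSeq gives Ikzf1 a pair of alternative first exons, and the 250 bases before each start are shown 5′ to 3′ on the plus strand of GRCm38.p6. Capitals mark each copy of GGGAA, the core that Ikaros proteins recognise, searched on both strands, so that a copy on the minus strand reads TTCCC. Neither window overlaps a GENCODE exon, and each lies within an intron of longer Ikzf1 transcripts.
Ikzf1 upstream start (chr11:11685675-11685924): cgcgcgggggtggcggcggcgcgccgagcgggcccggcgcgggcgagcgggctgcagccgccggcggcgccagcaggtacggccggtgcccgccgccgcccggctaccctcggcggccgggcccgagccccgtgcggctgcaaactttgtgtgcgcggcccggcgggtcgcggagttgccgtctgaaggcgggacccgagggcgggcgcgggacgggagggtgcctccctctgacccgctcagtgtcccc
Ikzf1 downstream start (chr11:11689927-11690176): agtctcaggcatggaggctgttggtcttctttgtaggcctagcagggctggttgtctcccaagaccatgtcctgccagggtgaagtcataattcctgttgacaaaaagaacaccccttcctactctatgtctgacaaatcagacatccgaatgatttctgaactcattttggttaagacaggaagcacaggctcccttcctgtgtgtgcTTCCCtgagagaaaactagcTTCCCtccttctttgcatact
The upstream window had a GC content of 82.0% and held 0 copies, whereas the downstream window had a GC content of 47.6% and held 2 copies, both on the minus strand. Of the 32851 windows of 250 bases in the RefSeq promoter table, 56.2% held at least 1 copy and 21.2% held 2 or more.

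Ikzf5 starts head to head with Acadsb, a mitochondrial acyl-CoA dehydrogenase gene on the opposite strand, and the 79 bases between their annotated first exons are shown on the strand of Ikzf5, since a value for Acadsb is given beside that of Ikzf5 further on.
Ikzf5 to Acadsb interval (chr7:131410522-131410600): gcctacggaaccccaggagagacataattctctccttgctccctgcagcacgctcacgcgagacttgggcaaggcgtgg
It held 0 copies of GGGAA on either strand, which were present in 22.5% of all promoter windows at the same place and length. The 250 bases before the RefSeq start of Ikzf5 (chr7:131410479-131410728), which contain the interval, held 1 copy and are not printed because they overlap exons. Matched promoters were at hand for 2 of the 5 members, Ikzf1 and Ikzf5.

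The authors' estimated counts summed to between 8889083 and 20677785 per library, with a median of 13208993. Levels are given as CPM, counts scaled to a common library size after TMM normalization. Of the 32285 genes, 13367 passed edgeR's filter on low counts. The quasi-likelihood test of edgeR was applied in one fit of the 4 groups, with Benjamini-Hochberg adjustment over all 13367 genes, and a gene is called where its adjusted p is under 0.05. All 5 members passed the filter, but Ikzf4 passed it only through the 3 libraries of 1MO MPP, since no library of another group reached the minimum of 0.757 CPM. The labels were checked against marker genes: 4 of 6 lymphoid progenitor markers were called higher in CLPs at both ages (Il7r was at 329 to 402 CPM in 1MO CLP and 5.24 to 18.5 CPM in 1MO MPP), and 3 of 6 multipotent progenitor markers were called lower in CLPs at 1MO and 4 of 6 at 3MO. In bulk samples, fewer cells of a type and less RNA per cell cannot be told apart.

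The library 1MO CLP replicate 1 stood apart from the other libraries of its group. The summed level of 4 stromal markers (Col1a1, Col1a2, Cxcl12 and Lepr) was 575 CPM in it and 203 and 208 CPM in the other 1MO CLP libraries, against 0 to 7.75 CPM in 3MO CLP, 10.8 to 77.9 CPM in 1MO MPP and 5.39 to 13.3 CPM in 3MO MPP. The collagen genes Col1a1 and Col1a2 were at or near 0 in 3MO CLP, at 0 in 2 of its 3 libraries each. The same library had the highest sum of 6 myeloid markers in the data, 1287 CPM, and the lowest sum of 6 lymphoid progenitor markers among CLPs, 5772 CPM. Results on CLPs at 1MO are therefore given with and without it where it matters.

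Ikzf1 was the most abundant member in every library and was higher in CLPs than in MPPs at both ages. Its level was 1016, 1083 and 1101 CPM in the libraries of 1MO CLP, and 910.5, 1037 and 1000.2 CPM in those of 3MO CLP. In 1MO MPP it stood at 585, 616 and 597 CPM, and in 3MO MPP at 491, 638 and 532 CPM. Every CLP library was above every MPP library, the lowest being 910.5 CPM in CLPs and the highest 638 CPM in MPPs.

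The mean of Ikzf1 was 1067 ± 44.8 CPM (SD, n = 3) in 1MO CLP, 983 ± 65.0 CPM in 3MO CLP, 599 ± 15.5 CPM in 1MO MPP and 554 ± 76.0 CPM in 3MO MPP. The difference between CLPs and MPPs was a log2 fold change of 0.83 at 1MO (1.78-fold, SE 0.14, 95% interval 0.54 to 1.12, edgeR adjusted p = 0.00134). At 3MO it was also 0.83 (1.77-fold, SE 0.14, 95% interval 0.54 to 1.12, edgeR adjusted p = 0.00152). In the order of the group means, the neighbours 1MO CLP and 3MO CLP overlapped, as did 1MO MPP and 3MO MPP.

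**Figure D1:**
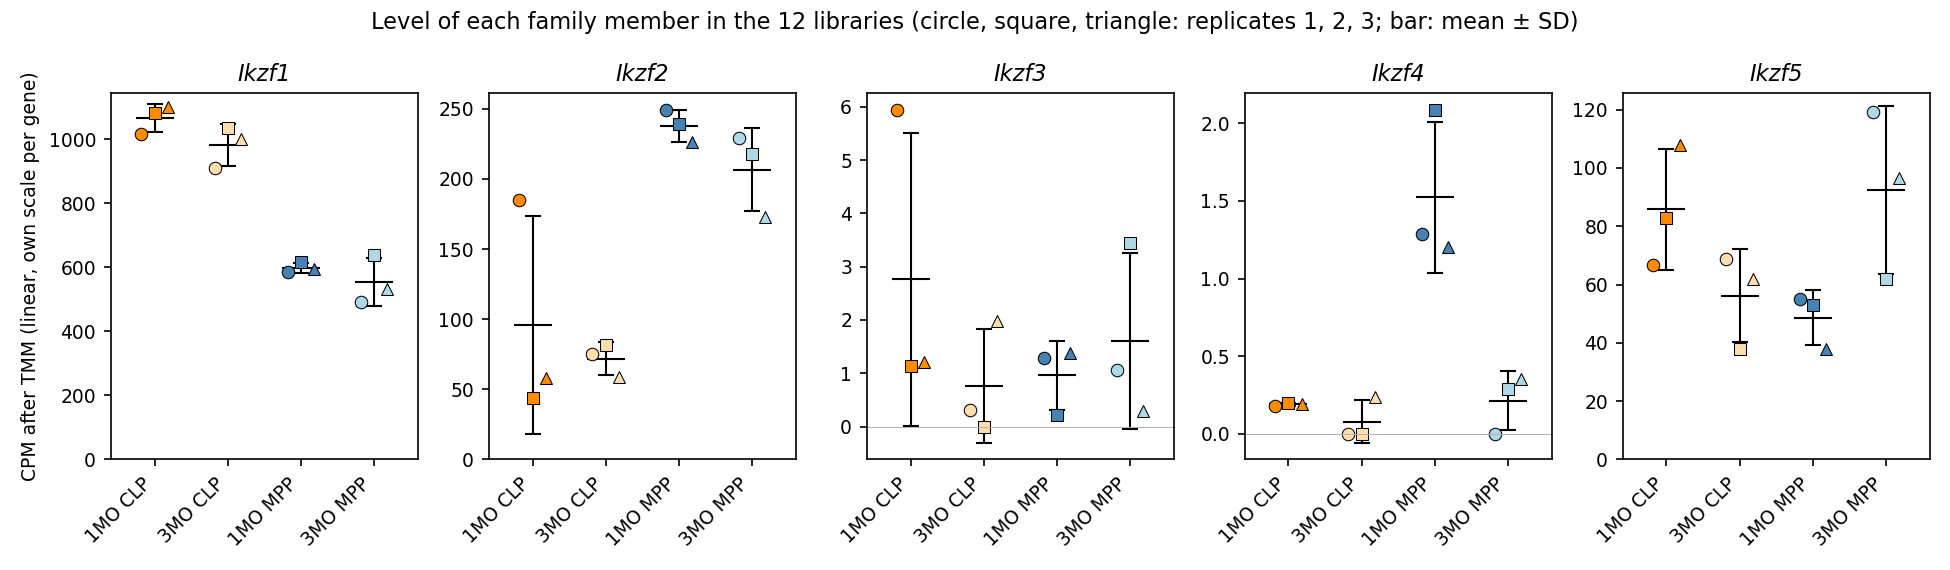
Level of each of the 5 members (CPM after TMM, linear axis with its own scale for each gene) in the 12 libraries, with circles, squares and triangles for replicates 1, 2 and 3 and bars for the mean ± SD of each group. All CLP libraries lie above all MPP libraries for Ikzf1, the mean of Ikzf2 is higher in MPPs with 1MO CLP replicate 1 at 185 CPM near the lowest MPP library, and Ikzf3 and Ikzf4 stay below 6 CPM and 2.1 CPM.

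Ikzf2 took the opposite course to Ikzf1, with lower mean levels in CLPs at both ages, a difference that passed the test at 3MO and missed it at 1MO. In 1MO CLP it was at 185, 44.0 and 57.9 CPM, and in 3MO CLP at 75.0, 81.8 and 59.1 CPM. In 1MO MPP it was at 249, 239 and 226 CPM, and in 3MO MPP at 229, 218 and 173 CPM. The highest CLP value, 185 CPM, was that of 1MO CLP replicate 1, and the 5 other CLP libraries lay at or below 81.8 CPM, whereas the lowest MPP library was at 173 CPM.

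At 3MO the log2 fold change of Ikzf2 between CLPs and MPPs was -1.52 (2.87-fold lower, SE 0.38, 95% interval -2.33 to -0.71, edgeR adjusted p = 0.0252), and the gene was called. Leaving out any of the 3 CLP libraries or MPP replicate 1 or 2 of that age kept the direction but ended the call, with log2 fold changes of -1.62 to -1.40 and edgeR adjusted p-values of 0.0585 to 0.102. At 1MO the log2 fold change was -1.32 (SE 0.38, 95% interval -2.12 to -0.52, edgeR adjusted p = 0.0555), which did not pass the threshold although the groups did not overlap (the lowest MPP library was at 226 CPM). With all genes that had a count tested, and likewise in DESeq2, the difference at 1MO passed (adjusted p = 0.00018 in edgeR and 0.0107 in DESeq2). It also passed in the fits with a replicate block, so that 4 of 7 alternatives called it. Whether equal replicate numbers share an experiment is not stated in the labels. Without 1MO CLP replicate 1, the log2 fold change at 1MO was -2.22 and passed (edgeR adjusted p = 2.37e-05). What part the other cells in that library had in its level of Ikzf2 was not tested.

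The mean of Ikzf2 was 238 ± 11.4 CPM in 1MO MPP, 207 ± 29.8 CPM in 3MO MPP, 95.7 ± 77.8 CPM in 1MO CLP and 72.0 ± 11.6 CPM in 3MO CLP (SD, n = 3 each). Each pair of neighbours in this order overlapped, the lower MPP group and the higher CLP group only through 1MO CLP replicate 1. The place of 1MO CLP above 3MO CLP, and the overlap of these groups, also rest on that library. Its other libraries, at 44.0 and 57.9 CPM, were below the lowest 3MO CLP library, at 59.1 CPM. With one Ikzf1 value and one Ikzf2 value per library, the log2 CPM of these genes had a Pearson's r of -0.84 over the 12 libraries, as a description of libraries that share their cell types.

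Ikzf5 had no fixed order between the cell types: it was higher in CLPs at 1MO and lower in CLPs at 3MO, and neither difference passed the test. Its level was 66.7, 82.9 and 108 CPM in 1MO CLP, and 68.6, 38.1 and 62.0 CPM in 3MO CLP. The MPP libraries held 55.0, 53.0 and 37.8 CPM at 1MO, and 119, 61.9 and 96.7 CPM at 3MO. At 1MO all CLP libraries were above all MPP libraries, whereas at 3MO the groups overlapped.

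The log2 fold change of Ikzf5 between CLPs and MPPs was 0.82 at 1MO (SE 0.28, 95% interval 0.23 to 1.41, edgeR adjusted p = 0.118) and -0.72 at 3MO (SE 0.28, 95% interval -1.31 to -0.13, edgeR adjusted p = 0.16). With all genes that had a count tested, and likewise with the 6 libraries of 1MO alone, the difference at 1MO passed (edgeR adjusted p = 0.0213 and 0.0493). The group means were 92.5 ± 28.8 CPM in 3MO MPP, 85.8 ± 20.8 CPM in 1MO CLP, 56.2 ± 16.1 CPM in 3MO CLP and 48.6 ± 9.40 CPM in 1MO MPP (SD, n = 3 each), and each pair of neighbours in this order overlapped.

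Ikzf3 and Ikzf4 were close to the limit of detection in these progenitors. The estimated counts of Ikzf3 were 66, 23 and 19 in 1MO CLP, 3, 0 and 25 in 3MO CLP, 16, 2 and 23 in 1MO MPP, and 10, 48 and 4 in 3MO MPP. The highest level was 5.94 CPM, in 1MO CLP replicate 1, and the 0 in 3MO CLP replicate 2 allows a level of up to 0.166 CPM (3 counts in that library, counting error only). Its values overlapped in all 4 comparisons of groups, and no difference passed the test: the log2 fold change between CLPs and MPPs was 1.49 at 1MO (95% interval -1.55 to 4.52, edgeR adjusted p = 0.761) and -1.07 at 3MO (95% interval -4.11 to 1.97, edgeR adjusted p = 0.776). Without 1MO CLP replicate 1 the value at 1MO was 0.27 (edgeR adjusted p = 0.968).

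The estimated counts of Ikzf4 were 16, 19 and 20 in 1MO MPP, 2, 4 and 3 in 1MO CLP, 0, 0 and 3 in 3MO CLP, and 0, 4 and 5 in 3MO MPP. The libraries of 1MO MPP, at 1.21 to 2.09 CPM, were above all others, of which the highest was at 0.354 CPM. A count of 0 allows a level of up to 0.303 CPM and 0.166 CPM in 3MO CLP replicates 1 and 2, and 0.317 CPM in 3MO MPP replicate 1. Between CLPs and MPPs at 1MO the log2 fold change was -2.94 (95% interval -6.29 to 0.40, edgeR adjusted p = 0.415), and since the gene was tested only because of 1MO MPP, it is left out of the counts of members called.

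Read against the other genes, 1 of the 4 other members was called between CLPs and MPPs at 1MO, Ikzf1, where 719 of 13367 genes (5.38%) were called, 2.57% higher and 2.81% lower in CLPs. At 3MO 2 of these 4 were called, Ikzf1 higher and Ikzf2 lower in CLPs, where 812 genes (6.07%) were called, 2.73% higher and 3.34% lower in CLPs. The values of 3 members did not overlap between the cell types at 1MO (Ikzf1, Ikzf2 and Ikzf5, with Ikzf4 not counted because it was tested through 1MO MPP alone), against 24.9% of all genes tested, and those of 2 at 3MO (Ikzf1 and Ikzf2), against 21.8%.

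The study compared 1MO with 3MO to look for changes that accompany the loss of both progenitors with age, and no member was called with age in either cell type. In CLPs 0 of these 4 were called, where 10 genes (0.0748%) passed, and in MPPs 0 of 4, where 3 genes (0.0224%) passed. Relative to 1MO, the log2 fold change of Ikzf1 at 3MO was -0.12 in CLPs (95% interval -0.41 to 0.17, edgeR adjusted p = 0.956) and -0.11 in MPPs (95% interval -0.40 to 0.18, edgeR adjusted p = 1). That of Ikzf2 was -0.41 in CLPs (95% interval -1.20 to 0.39, edgeR adjusted p = 0.937) and -0.20 in MPPs (95% interval -0.99 to 0.58, edgeR adjusted p = 1). Without 1MO CLP replicate 1, the value of Ikzf2 in CLPs turned to 0.50 and did not pass (edgeR adjusted p = 0.521).

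Ikzf5 had the smallest unadjusted p of the members with age in both cell types. Its log2 fold change was -0.61 in CLPs (SE 0.28, 95% interval -1.20 to -0.02, edgeR unadjusted p = 0.0429, adjusted p = 0.837) and 0.93 in MPPs (SE 0.28, 95% interval 0.33 to 1.52, edgeR unadjusted p = 0.00454, adjusted p = 1). In MPPs the lowest 3MO library was at 61.9 CPM and the highest 1MO library at 55.0 CPM, so the ages did not overlap, as was the case for 8.57% of all genes tested. In CLPs no member's ages were apart, against 10.6% of all genes tested.

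The interaction of age and cell type tests whether the change with age differs between CLPs and MPPs. It called 0 genes (0%) in edgeR's test, 429 of 13367 genes (3.21%) had an unadjusted p under 0.05, and DESeq2 called 7 genes. Among the members only Ikzf5 had an unadjusted p under 0.05: its interaction was -1.54 on the log2 scale (SE 0.39, 95% interval -2.38 to -0.70, edgeR unadjusted p = 0.00133), the 10th smallest p of all genes tested, and it did not pass the adjustment (edgeR adjusted p = 1). It lay between -1.76 and -1.32 with any one library left out. The interaction was -0.01 for Ikzf1 (95% interval -0.41 to 0.40, edgeR adjusted p = 1) and -0.20 for Ikzf2 (95% interval -1.32 to 0.92, edgeR adjusted p = 1).

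**Figure D2:**
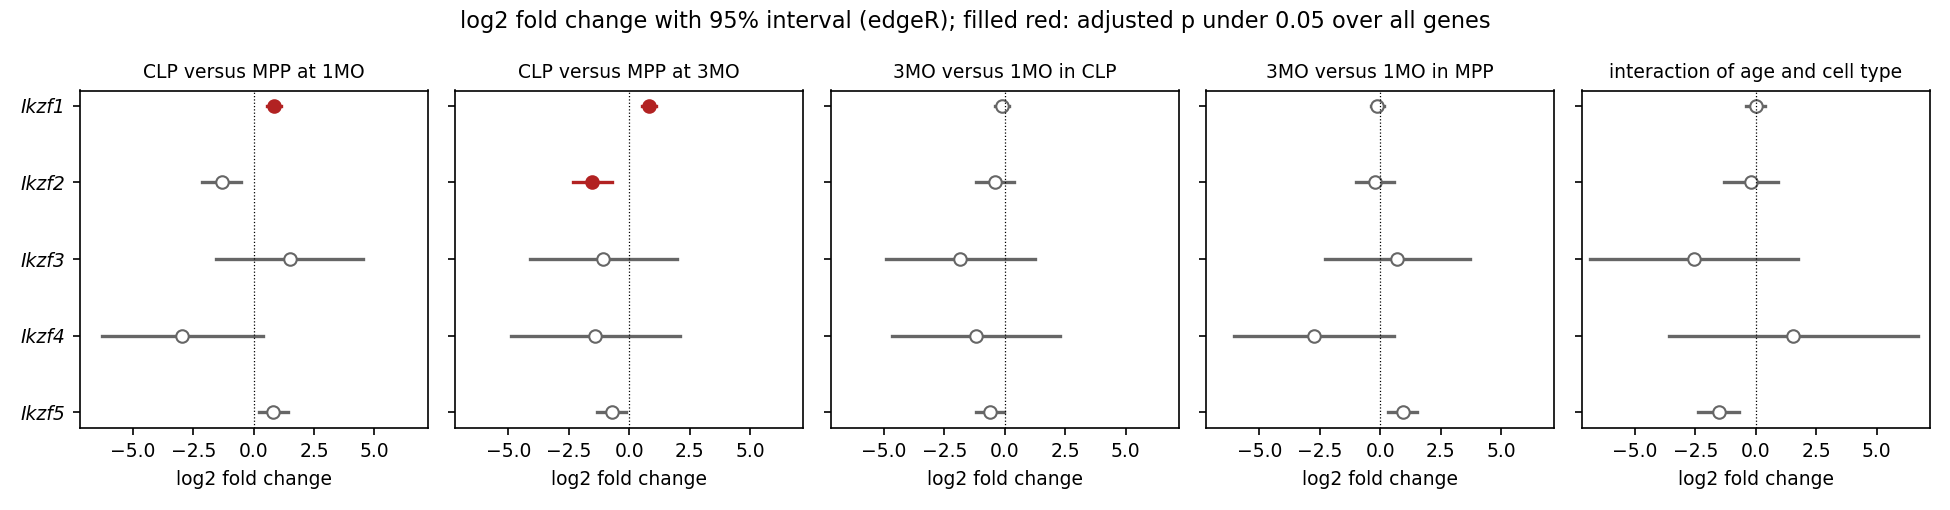
log2 fold change of each member (points) with its 95% interval (lines) in the 5 comparisons of edgeR, where CLP versus MPP is the level in CLPs relative to MPPs and 3MO versus 1MO the level at 3MO relative to 1MO. Filled red points had an adjusted p under 0.05, which were Ikzf1 at both ages and Ikzf2 at 3MO, and the intervals of Ikzf3 and Ikzf4 span several log2 units.

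The genes around Ikzf5 were examined after its values were seen. Acadsb, which shares the interval printed above, had mean levels of 34.0 CPM in 1MO CLP, 33.0 CPM in 3MO CLP, 41.3 CPM in 1MO MPP and 38.5 CPM in 3MO MPP. Its interaction of age and cell type was 0.07 (edgeR unadjusted p = 0.861), against -1.54 for Ikzf5. Pstk, the kinase gene of selenocysteine synthesis on the opposite strand, overlaps exons of Ikzf5 and had mean levels of 8.64, 13.6, 16.4 and 14.7 CPM in the same order of groups. Its interaction was 0.82 (edgeR unadjusted p = 0.187), and its log2 fold change between CLPs and MPPs at 1MO was -0.92 (edgeR unadjusted p = 0.0446, adjusted p = 0.296), where the groups did not overlap. Although the library kit marks strand, the strand setting of the quantification is not given, so that reads from this overlap may have been divided between Ikzf5 and Pstk.

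Within the introns of Ikzf2, on its own strand, lie the non-coding genes Gm29112 and Gm28112. Gm28112 had a mean of 1.09 CPM in 1MO CLP and 0.819 CPM in 3MO CLP, against 7.01 and 5.60 CPM in MPPs at 1MO and 3MO. Gm29112 had means of 1.23 and 1.29 CPM in CLPs and of 5.16 and 4.48 CPM in MPPs. Neither was called in any comparison by edgeR, and their levels cannot be told apart from unspliced RNA of Ikzf2. Gm29114, antisense to Ikzf2 across 5 exon overlaps, was at 0 in every CLP library and at or below 0.921 CPM in MPPs.

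The make-up of the family was compared per length, as CPM divided by the exonic length of each gene in kb (the exons cover 5777 bases in Ikzf1, 11613 in Ikzf2 and 5721 in Ikzf5). The summed family level was 208 ± 5.63 CPM per kb in 1MO CLP and 133 ± 3.58 in 1MO MPP, and 186 ± 8.97 in 3MO CLP and 130.1 ± 9.09 in 3MO MPP (SD, n = 3 each). All CLP libraries were above all MPP libraries at both ages (p = 0.1 in a two-sided exact permutation test, which cannot go lower with 3 libraries a group). The sums at 1MO and 3MO did not overlap in CLPs (p = 0.1 in the same exact test) and overlapped in MPPs (p = 0.6).

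Ikzf1 made up 88.7 ± 2.46% of the family level in 1MO CLP and 91.3 ± 1.71% in 3MO CLP, against 78.0 ± 1.64% in 1MO MPP and 73.5 ± 5.54% in 3MO MPP. Ikzf2 made up 3.99 ± 3.31% and 3.33 ± 0.56% in CLPs at 1MO and 3MO, against 15.4 ± 0.65% and 13.7 ± 1.88% in MPPs. Its share was 7.81% in 1MO CLP replicate 1 and 1.84% and 2.32% in replicates 2 and 3. The latter were below the lowest 3MO CLP library, at 2.69%, so that the order of the ages rests on replicate 1. For Ikzf1 and Ikzf2 the shares in CLPs and MPPs did not overlap at either age (exact permutation test, p = 0.1, the smallest possible). The share of Ikzf5 was 7.18 ± 1.55% in 1MO CLP, 5.33 ± 1.72% in 3MO CLP and 6.37 ± 1.13% in 1MO MPP, and 12.6 ± 4.51% in 3MO MPP, where it did not overlap with 3MO CLP or with 1MO MPP (exact permutation test, p = 0.1 for each). Ikzf3 and Ikzf4 together stayed under 1% of the family in every library.

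**Figure D3:**
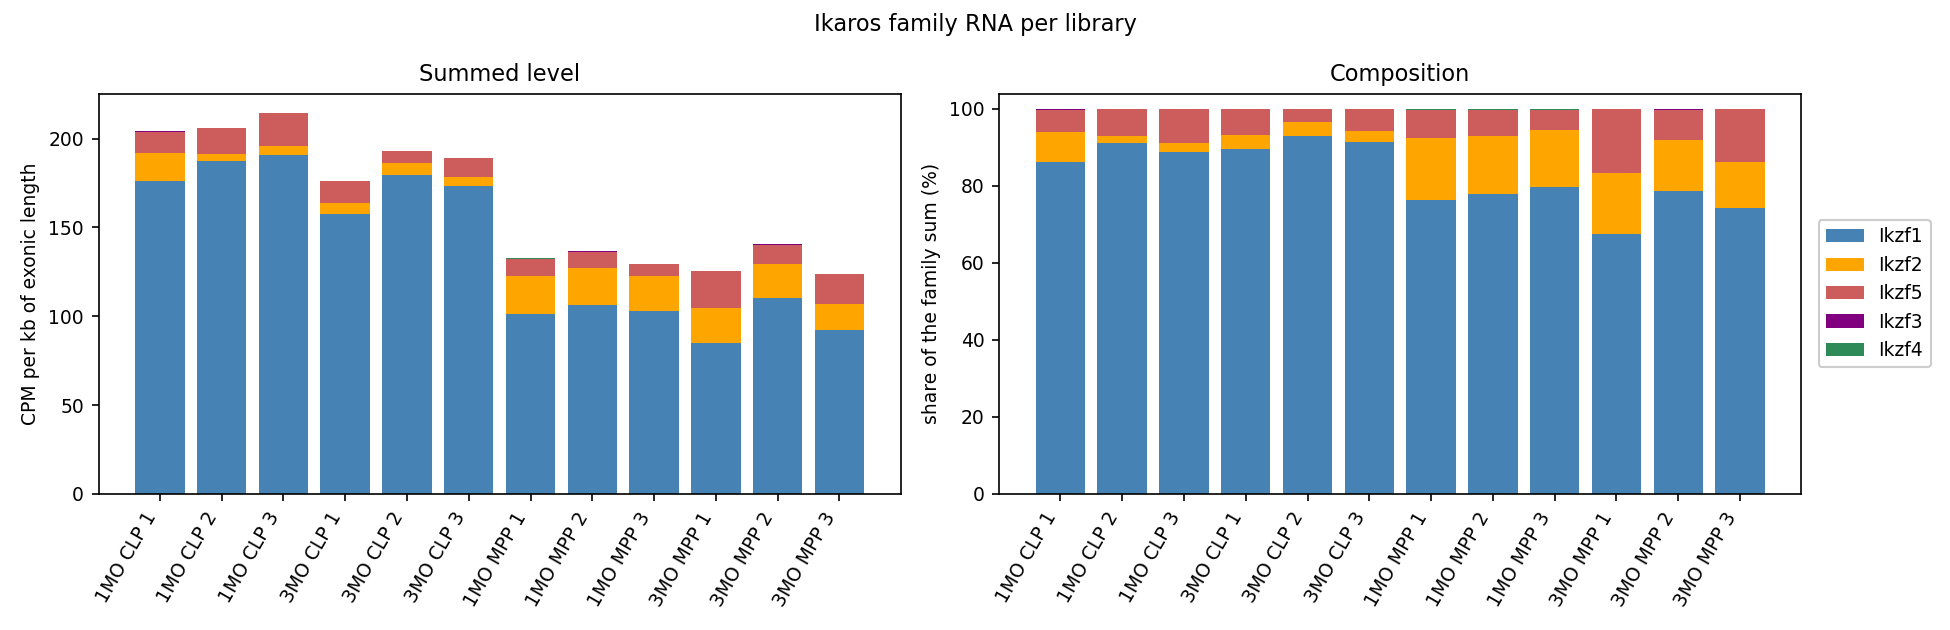
Summed CPM per kb of exonic length of the 5 members (left) and the share of each member in that sum in percent (right), one bar for each of the 12 libraries. The CLP bars reach 176 to 215 CPM per kb and the MPP bars 124 to 141, and the share of Ikzf2 is wider in the MPP bars than in the CLP bars.

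The ratio of Ikzf1 to Ikzf2 per kb was 11.0, 49.5 and 38.2 in the libraries of 1MO CLP and 24.4, 25.5 and 34.0 in those of 3MO CLP. The MPP libraries had ratios of 4.73, 5.18 and 5.30 at 1MO, and of 4.31, 5.90 and 6.19 at 3MO. Each CLP library, 1MO CLP replicate 1 included, had a higher ratio than each MPP library, and on the log2 scale the ratio was higher in CLPs by 2.44 at 1MO and by 2.36 at 3MO (p = 0.1 for each in the two-sided exact permutation test, its lowest value). With age the ratio overlapped in both cell types, with differences of 0.01 in CLPs and 0.09 in MPPs on the log2 scale (p = 1 and p = 0.6 in the same exact test). Without 1MO CLP replicate 1 the difference with age in CLPs was -0.65, and the ages no longer overlapped, so that the value near 0 rests on that library. The difference between CLPs and MPPs at 1MO was then 3.10.

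Set among all 13363 tested genes with a length, per kb, Ikzf1 was exceeded by 0.883% of genes in 1MO CLP, 0.793% in 3MO CLP, 1.62% in 1MO MPP and 1.70% in 3MO MPP. Ikzf2 was exceeded by 17.0% of genes in 1MO MPP and 20.5% in 3MO MPP, and by 43.0% and 51.0% in CLPs at 1MO and 3MO. Without 1MO CLP replicate 1 the share at 1MO was 59.1%, so that the order of the ages in CLPs turns with that library. Ikzf5 was exceeded by 23.2% to 42.7% of genes across the groups. Ikzf3 and Ikzf4 ranked below 90.7% of genes or more in each group.

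Partners and targets of the Ikaros proteins were taken from lists written from general knowledge with earlier results of these data known, so that an excess of calls over the share of all genes is no independent evidence of a list's direction. Of the 14 NuRD genes all were tested, and 1 was called higher in CLPs at each age and 0 lower, with a median log2 fold change between CLPs and MPPs of 0.18 at 1MO and 0.15 at 3MO, against -0.02 and -0.03 over all genes tested. Over all genes, 2.57% were called higher and 2.81% lower at 1MO, and 2.73% and 3.34% at 3MO. The gene called was Mta3, a metastasis-associated subunit, at 175 ± 27.4 CPM in 1MO CLP and 77.6 ± 3.99 CPM in 1MO MPP, and at 125 ± 37.1 CPM in 3MO CLP and 69.3 ± 16.9 CPM in 3MO MPP (SD, n = 3 each). Its log2 fold change was 1.17 at 1MO (SE 0.23, edgeR adjusted p = 0.00501) and 0.85 at 3MO (SE 0.23, edgeR adjusted p = 0.0357). At 3MO its groups overlapped, with the lowest CLP library at 88.2 CPM and the highest MPP library at 88.8 CPM. Its paralog Mta2 had a log2 fold change of 0.37 at 1MO and the histone chaperone Rbbp4 of 0.46, neither of which passed (edgeR adjusted p = 0.168 and 0.217).

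Of the 7 other corepressor genes, 0 were called in any of the 5 comparisons by edgeR, where 5.38% and 6.07% of all genes were called between the cell types at 1MO and 3MO and 0.0748% and 0.0224% with age in CLPs and MPPs, so that nothing particular to the list is read from this count. The Polycomb subunit Suz12 had the smallest p at 1MO, with means of 351 CPM in CLPs and 239 CPM in MPPs and a log2 fold change of 0.55 (SE 0.18, edgeR adjusted p = 0.0941). Sin3a, a scaffold of histone deacetylase complexes, had a log2 fold change of 0.31 and Rb1, the retinoblastoma protein, of 0.49 at 1MO. With age in CLPs the values were 0.23 for Ezh2, the methyltransferase of Polycomb complex 2, and -0.13 for Sin3b, and neither passed (edgeR adjusted p = 0.94 and 0.965).

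The cereblon ubiquitin ligase, through which thalidomide-type drugs direct Ikaros and Aiolos to degradation, was represented by 5 genes, of which 0 were called in any comparison by edgeR, a count that tells little beside the 5.38% and 6.07% of all genes called between the cell types and the 0.0748% and 0.0224% called with age. Its substrate receptor Crbn was at 36.3 ± 1.33 CPM in 1MO CLP, 29.5 ± 4.69 CPM in 3MO CLP, 43.6 ± 3.13 CPM in 1MO MPP and 43.4 ± 3.94 CPM in 3MO MPP (SD, n = 3 each). Its log2 fold change between CLPs and MPPs was -0.26 at 1MO and -0.56 at 3MO (edgeR adjusted p = 0.653 and 0.132). The scaffold Cul4a and the RING protein Rbx1 had values of -0.07 and -0.41 at 1MO (edgeR adjusted p = 0.934 and 0.63).

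Of 14 lymphoid genes known as Ikaros targets, 11 were tested, and 5 were called higher and 0 lower in CLPs at each age, with a median log2 fold change of 2.64 at 1MO and 1.41 at 3MO, against medians of -0.02 and -0.03 and shares called higher of 2.57% and 2.73% over all genes tested. Il7r, Dntt, Rag1 and Flt3 are also among the 6 lymphoid progenitor markers used to check the labels, so that these calls restate that check in part. The recombinase gene Rag1 was at 263 ± 64.8 CPM in 1MO CLP and 12.3 ± 1.36 CPM in 1MO MPP, a log2 fold change of 4.42 (SE 0.28, edgeR adjusted p = 2.89e-07). Its partner Rag2 had a log2 fold change of 2.76, the interleukin-7 receptor gene Il7r of 5.19, and Dntt, the terminal transferase that adds bases at V(D)J joints, of 2.64, all called by edgeR. Of 9 markers of B-lineage cells, 8 were tested, and 2 were called higher in CLPs at 1MO, 3 at 3MO and 0 lower. Their summed level was 182 to 222 CPM in 1MO CLP and 136 to 167 CPM in 3MO CLP, against 15.2 to 27.6 CPM in MPPs, and most of it in CLPs came from Blnk and Ebf1, while Cd79b had means of 15.8 CPM in 1MO CLP and 15.3 CPM in 1MO MPP and Igll1 was at 0 in all but 1 library. Of 4 markers of plasmacytoid dendritic cells, 3 were called higher in CLPs at 1MO and 2 at 3MO, with sums of 134 to 168 CPM in 1MO CLP, 106 to 145 CPM in 3MO CLP, 32.4 to 36.3 CPM in 1MO MPP and 33.4 to 51.0 CPM in 3MO MPP. Of 6 myeloid markers, 1 was called higher in CLPs at 1MO and 0 at 3MO. Their sums were 946 to 1287 CPM in 1MO CLP and 664 to 810 CPM in 1MO MPP. At 3MO they were 850 to 1163 CPM in CLPs and 632 to 983 CPM in MPPs, where they overlapped. The part of these cell types in the values of the lists and of Ikzf1 was not tested.

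Rag1 was the only gene of the 6 lists that was called with age by edgeR, where 0.0748% of all genes were called in CLPs. In CLPs it fell to 96.5 ± 25.4 CPM at 3MO (SD, n = 3), a log2 fold change of -1.44 (SE 0.25, edgeR adjusted p = 0.0428). Over the same interval Ikzf1 had a log2 fold change of -0.12 and Rag2 one of -0.41, which did not pass (edgeR adjusted p = 0.923 for Rag2). Of the 8 tested B-lineage markers 0 were called with age in CLPs, their median log2 fold change was -1.29, and their sums, given above, did not overlap between the ages. Among them Pax5 was at 7.56 to 28.9 CPM in 1MO CLP and 0.498 to 12.5 CPM in 3MO CLP. Blnk, the most abundant of them in CLPs, had a higher mean at 3MO, and its ranges overlapped. It was at 79.3 to 97.7 CPM in 1MO CLP and 93.7 to 119.2 CPM in 3MO CLP. Cd79b was at 10.4 to 19.4 CPM and 10.6 to 15.8 CPM in the same order. The part of the B-lineage markers in the value of Rag1 was not tested.

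Of 12 stem cell and megakaryocyte-erythroid genes that Ikaros is known to keep low, 5 were called lower and 0 higher in CLPs at each age, with a median log2 fold change of -1.29 at 1MO and -0.95 at 3MO, against medians of -0.02 and -0.03 and shares called lower of 2.81% and 3.34% over all genes tested. Hlf, a transcription factor of stem cells, was at 38.1 ± 8.11 CPM in 1MO CLP and 572 ± 74.5 CPM in 1MO MPP, a log2 fold change of -3.91 (SE 0.19, edgeR adjusted p = 1.52e-08). Gata2, a transcription factor of stem and early progenitor cells, had a log2 fold change of -2.74 at 1MO (edgeR adjusted p = 0.000156). Also called at both ages were Kit, at -1.32 and -1.65, and Meis1, at -1.27 and -1.24, which lie outside the rule for named genes. Vwf, the von Willebrand factor of platelets, ranged widely within 1MO CLP, from 6.09 to 32.1 CPM, and was not called (edgeR adjusted p = 0.884 at 1MO).

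Of 12 transcription factors of lymphoid priming, 3 were called higher and 2 lower in CLPs at 1MO, and 3 higher and 1 lower at 3MO, with median log2 fold changes of 0.44 and 0.29, against -0.02 and -0.03 over all genes tested, of which 2.57% and 2.73% were called higher and 2.81% and 3.34% lower. Ebf1, which specifies the B lineage, was at 53.0 to 76.3 CPM in 1MO CLP and at 0.181 to 0.878 CPM in 1MO MPP, and at 20.8 to 38.2 CPM in 3MO CLP and 0.921 to 2.85 CPM in 3MO MPP. Its log2 fold change between CLPs and MPPs was 7.14 at 1MO and 3.92 at 3MO (edgeR adjusted p = 1.73e-06 and 7.58e-05), and its interaction of age and cell type was -3.22 (edgeR unadjusted p = 0.000185, adjusted p = 0.825). With age in CLPs the log2 fold change was -1.17 for Ebf1 and -0.72 for Foxo1, and neither passed (edgeR unadjusted p = 0.00777 and 0.00489, adjusted p = 0.67 and 0.598). Foxo1, an activator of Il7r and Rag genes, had a log2 fold change of 0.84 at 1MO (SE 0.22, edgeR adjusted p = 0.0334) and of 0.14 at 3MO, where it did not pass (edgeR adjusted p = 0.812). Lmo2, a cofactor of stem and erythroid programmes, was lower in CLPs by a log2 fold change of -1.65 at 1MO and -1.89 at 3MO (edgeR adjusted p = 1.35e-05 and 6.16e-06). Gfi1, a repressor active in myeloid and lymphoid cells, had values of -1.09 at 1MO (edgeR adjusted p = 0.0271) and -0.40 at 3MO (edgeR adjusted p = 0.489).

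**Figure D4:**
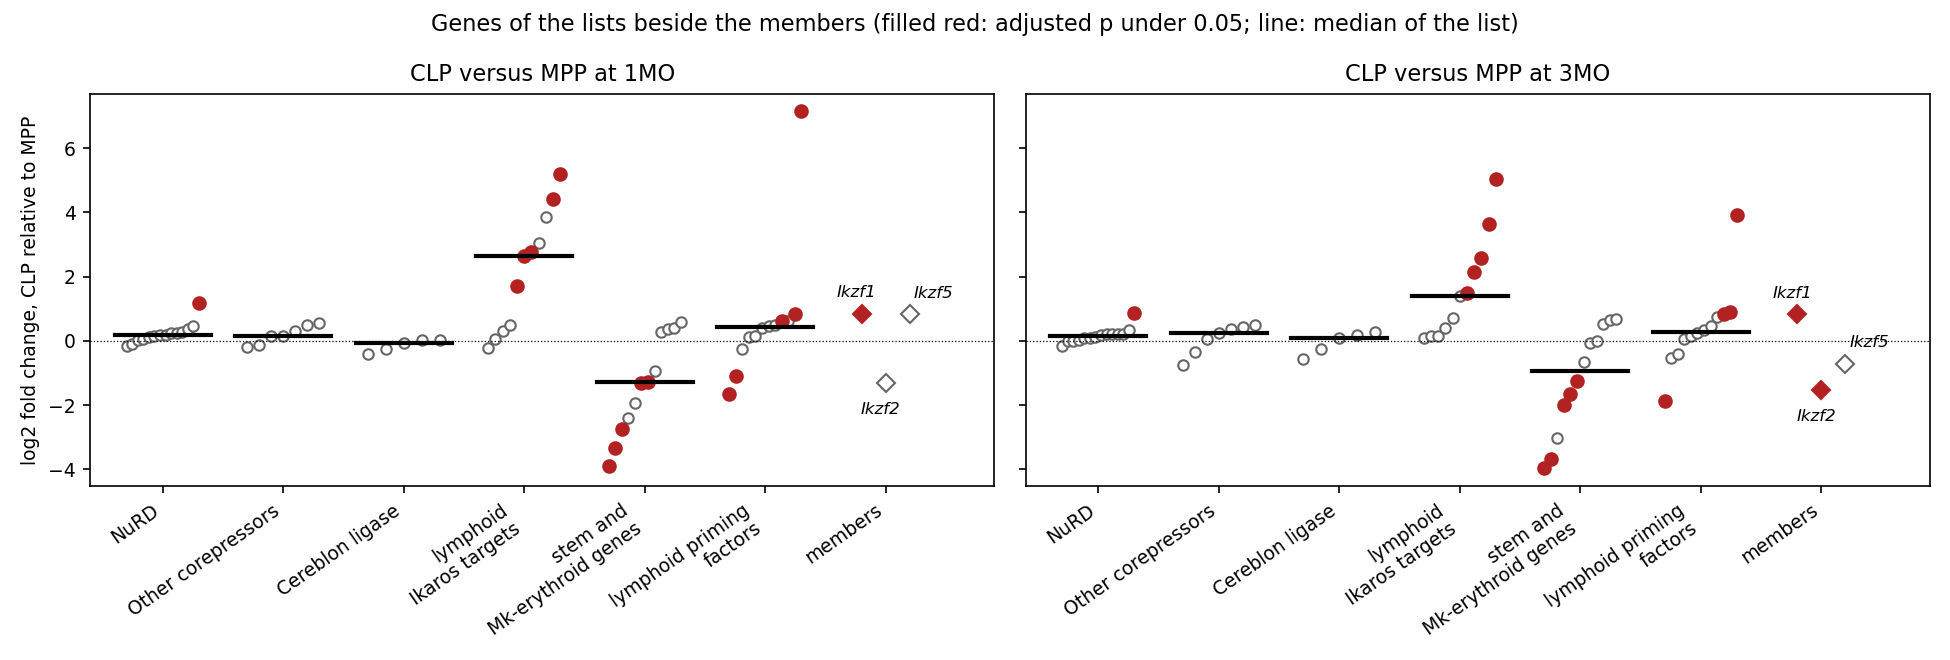
log2 fold change of CLPs relative to MPPs at 1MO (left) and 3MO (right) for each tested gene of the 6 lists (circles, ordered by value within a list) and for Ikzf1, Ikzf2 and Ikzf5 (diamonds). Filled red symbols passed an edgeR adjusted p of 0.05 and black lines mark the median of each list, which is at 2.64 and 1.41 for the lymphoid targets and at -1.29 and -0.95 for the stem and megakaryocyte-erythroid genes.

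The genes whose log2 CPM ran most like that of a member over the 12 libraries are given by Pearson's r, as a description of libraries from 2 cell types that differ in depth. For Ikzf1 they were Kmo (r = 0.989), Cd93 (r = 0.989) and Egln1 (r = 0.987), and 217 genes had an r over 0.9. Kmo, kynurenine monooxygenase, was at 65.5 to 72.8 CPM in 1MO CLP, 36.0 to 50.6 CPM in 3MO CLP, and 5.88 to 13.1 CPM in MPPs. Cd93, a surface receptor of early lymphoid cells, was at 1625 to 1994 CPM in CLPs and 719 to 958 CPM in MPPs.

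For Ikzf2 the most similar genes were Mill2 (r = 0.951), Arhgef40 (r = 0.949) and Atxn1 (r = 0.946), and 31 genes had an r over 0.9. Mill2, a relative of MHC class I genes, was at 4.44 to 14.7 CPM in MPPs and at 0 in all 3 libraries of 3MO CLP. Arhgef40 resembled Ikzf2 also in its highest CLP value, 34.5 CPM, against a range of 10.7 to 17.7 CPM in 3MO CLP.

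For Ikzf5 the highest r was 0.851, with Trpv4, followed by Rab11fip4 (0.830) and Gtf2a1 (0.829), and 0 genes had an r over 0.9. Rab11fip4, a Rab11 effector, had means of 14.3 CPM in 1MO CLP, 6.15 CPM in 3MO CLP, 5.86 CPM in 1MO MPP and 23.4 CPM in 3MO MPP, with a range of 6.04 to 56.0 CPM within 3MO MPP. For Ikzf4 the genes were Plag1 (0.923), Ccdc159 (0.915) and Tmem80 (0.903), and for Ikzf3 Pigk (0.857), Ctla4 (0.805) and Omp (0.792). Both of these members rest on few counts, and Ccdc159 was at 0 in all 6 CLP libraries.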

How the data were processed

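Libraries of RNA, 12 in all, represented Ly6d- CLPs and Flk2+ MPPs at 1MO and 3MO. Per the study's methods and processing notes, polyadenylated RNA was made into strand-marking libraries, and reads were processed in nf-core with FastQC, UMI-tools, Trim Galore, STAR and Salmon on mm10. The authors deposited one estimated count for each gene and library, adjusted for transcript length but not for depth. The methods list extraction of UMIs as a step, and the strand setting is not given in the sources used here. Each of the 12 columns carries the name of one sample.

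Counts were rounded to whole numbers and tested with edgeR 4.0.16 (R 4.3.3, limma 3.58.1): filterByExpr (minimum count 10), TMM and the quasi-likelihood test in one fit of 4 groups. log2 CPM for correlations used a prior count of 2. Family shares, from exonic lengths of GENCODE M21, were compared by exact permutation (scipy 1.17.1). The groups came from the sample titles. In simulated counts for the comparison of CLPs and MPPs at 1MO, 200 of 13367 genes were changed 3-fold. The filter was then applied again and 13022 genes were tested. Of the 200 changed genes, whether or not they passed that filter, edgeR recovered 121 (60.5%), and it called 6 unchanged genes.

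Members and lists were chosen with earlier results of these data known. Named genes were the 5 members, the 3 genes of each list with the smallest p between CLPs and MPPs at 1MO and the 2 with the smallest p for age in CLPs, and the 3 genes most correlated with each member. A few genes that the rule or the lists include are not reported here. Alternatives were DESeq2 1.42.0 (its size factors and its Wald test), other filters, a replicate block, only the libraries compared, each library left out, and the longest transcript as length. Ikzf3 and Ikzf4 had few counts. Protein sequences and other assays of the study were not used here.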

Additional observations from a re-analysis of the deposited data

How the results depend on the processing

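Over 232 alternatives other than leaving out a library, 206 kept the direction and the side of the threshold or, for a count of genes, stayed within 1.5 times, 4 were weaker, 19 stronger, 2 reversed and 1 moved. Of 372 values with one library left out, these numbers were 342, 16, 4, 10 and 0. Ikzf1 was called between CLPs and MPPs at both ages in all of them, with edgeR or DESeq2 adjusted p-values of 1.37e-08 to 0.02 without and 0.00185 to 0.0114 with a library left out. Leaving out a library of a group of 3 rests its variance on 2. The causes of the changes were not tested.

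For Ikzf2 between CLPs and MPPs at 1MO, the log2 fold change passed with no filter beyond 1 count (-1.30, adjusted p = 0.00018 in edgeR) and in DESeq2 (-1.30, adjusted p = 0.0107). For Ikzf5 at 1MO it passed with no filter (0.85) and with only the libraries compared (0.84). Members called at 1MO numbered 3 with no filter, where 903 of 17730 genes were called, and 2 in DESeq2 and with only the libraries compared, where 900 of 12707 genes were called. Genes called with no filter were 46 for age in CLPs, 26 for age in MPPs and 6 for the interaction, and with at least 10 counts in every library 4 and 1 for age in CLPs and MPPs. DESeq2 called 1237 genes at 1MO, 1438 at 3MO, 65 and 35 for age in CLPs and MPPs and 7 for the interaction. With only the libraries compared, 435 genes were called at 3MO and 4 for age in CLPs.

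The labels do not say whether libraries with equal replicate numbers share an experiment, although sample numbers in the column names run by replicate. Deviations from the group means had a Pearson's r of -0.03 to 0.21 across genes between same-numbered libraries. Between libraries of different numbers it was -0.24 to 0.14. Summed levels of 6 erythroid markers were 133, 83.6, 132 and 110 CPM in replicate 3 of 1MO CLP, 3MO CLP, 1MO MPP and 3MO MPP. All other libraries held 16.8 to 33.1 CPM, so that replicate 3 stood apart in each group and a pairing by number is left undecided. With a replicate block, Ikzf2 at 1MO was at -1.49 (edgeR adjusted p = 0.00926), and with a replicate block within age at -1.62 (edgeR adjusted p = 0.00446), each with 2 members called at 1MO. In the block within age the interaction, not called, reversed to 0.00 for Ikzf1 (0.0019) and to 0.10 for Ikzf2.

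With one library left out, Ikzf2 ranged from -2.22 to -0.97 at 1MO, from -1.63 to -1.40 at 3MO and from -0.75 to 0.50 for age in CLPs, the interaction from -0.085 to 0.11 for Ikzf1, from -0.55 to 0.70 for Ikzf2 and from -1.71 to 2.15 for Ikzf4. Ikzf3 ranged from -3.48 to 0.19 at 3MO and from -0.55 to 1.21 for age in MPPs, positive and negative respectively only without 3MO MPP replicate 2. Members called were 1 to 2 at each age, and genes called 460 to 623 at 1MO, 553 to 669 at 3MO, 6 to 10 and 3 to 5 for age in CLPs and MPPs, and 0 to 1 for the interaction. The share of Ikzf2 for age in CLPs moved from -1.73 to 1.25 percentage points. With the longest transcript as length, the shares kept their directions and the summed family level was higher in CLPs at 1MO by 83.7 CPM per kb, against 75.1.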
